A study of Mus musculus with 6 samples.

Results

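The genes of mitochondrial fatty acid oxidation and the targets of the nuclear receptor PPAR alpha were examined in the livers of Src-transgenic and wild-type mice. The set was a named list of 31 genes, matched to the array by RefSeq transcript accession. Of these, 29 had a probe, 1 probe each, among the 34175 features measured. Acot2 and Hadha matched no probe and have no value here. The study measured liver RNA on 1-colour oligonucleotide arrays. The wild-type group held 3 C57BL/6 mice (replicates 1, 2 and 4), and the transgenic group held 3 C57BL/6 mice (replicates 1, 3 and 4) with a human c-Src gene placed behind the mouse metallothionein promoter. All mice were 14 months old, and no carcinogen was given. The promoter responds to zinc and drives expression beyond hepatocytes, though induction was typically not needed according to the study's design text. Whether a given piece of liver held tumour is not stated. Arrays of a further liver per group, transgenic sample 2 and wild-type sample 3, were dropped by the study because their signals were very weak. Only the transgenic samples are numbered as mice in the labels, so p-values measure the spread between these samples, whatever its source.

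Fatty acids that reach a hepatocyte are bound by a carrier protein, joined to coenzyme A, moved into the mitochondrion on carnitine and shortened stepwise by the dehydrogenase, hydratase, second dehydrogenase and thiolase reactions of beta-oxidation. The electrons pass through electron transfer flavoprotein to the respiratory chain, and the acetyl-CoA feeds ketone body synthesis in fasting. PPAR alpha, a receptor for fatty acids, binds DNA with a retinoid X receptor at a pair of AGGTCA elements spaced by a single base and activates many of these genes, together with the microsomal Cyp4a omega-hydroxylases, in fasting or with fibrate drugs.

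RefSeq promoter windows on GRCm38.p6, from 250 bases before to 50 bases after the start site, were at hand for 22 of the 29 genes, in 25 windows. The motif AGGTCANAGGTCA was searched on both strands with up to 2 mismatches among its 12 fixed letters. A match lay in 5 of the 25 windows, or 20%, those of Creb3l3, Echs1, Etfa, Fabp1 and Slc25a20. Over all 32851 windows of this length the share was 3.86%. An exact match lay in 0 member windows and in 0.0396% of all windows. The element AGGTCA alone, which overlaps the longer motif, lay in 6 member windows, those of Acadm, Acadvl, Cpt1a, Creb3l3, Echs1 and Fabp1, and in 16.3% of all windows. A match is a description of letters and not a binding site. The windows of Fabp1, whose match had the fewest mismatches of the 5, and of Creb3l3, one of the genes whose groups did not overlap, are shown in the direction of the gene with the match in capitals. The Fabp1 window is chr6:71199629-71199928 on the plus strand, with 1 mismatch and the match beginning at position -67 from the start site. The Creb3l3 window is chr10:81092542-81092841 on the minus strand, with 2 mismatches and the match beginning at position -209.
Fabp1: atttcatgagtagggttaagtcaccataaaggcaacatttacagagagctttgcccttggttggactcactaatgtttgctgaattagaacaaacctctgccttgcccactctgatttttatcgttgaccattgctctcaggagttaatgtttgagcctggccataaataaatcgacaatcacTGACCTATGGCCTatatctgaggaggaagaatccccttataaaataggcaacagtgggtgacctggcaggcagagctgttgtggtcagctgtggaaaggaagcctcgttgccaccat
Creb3l3: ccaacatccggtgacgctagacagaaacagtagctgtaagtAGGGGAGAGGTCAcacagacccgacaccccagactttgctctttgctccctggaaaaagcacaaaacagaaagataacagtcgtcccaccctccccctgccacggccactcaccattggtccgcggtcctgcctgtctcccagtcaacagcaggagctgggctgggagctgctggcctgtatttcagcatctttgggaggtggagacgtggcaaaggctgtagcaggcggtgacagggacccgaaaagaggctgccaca

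The arrays differed in ways that bear on these genes. Median probe signal was 53.8 to 93.4 on the wild-type and 94.8 to 117 on the transgenic arrays, so values were quantile normalized and are given as log2 signal. Transgenic replicate 4 stood apart. There the probes for 3 genes of the Y chromosome (Uty, Ddx3y, Eif2s3y) read as background, which they did on no other array. A probe for the Y-linked gene Kdm5d went the other way, being above background on all 6 arrays and highest there, at 9.03. No label gives the sex. The summed signal of 11 female-biased liver genes ranged from 995 to 1184 in wild-type and from 1714 to 67389 in transgenic livers. That of 13 male-biased genes ranged from 71687 to 76229 and from 27099 to 62790. The highest female-biased and the lowest male-biased sum were both on transgenic replicate 4. The Src probe read 6.62 to 7.21 in wild-type and 7.71 to 9.67 in transgenic livers (limma adjusted p = 0.69), with no overlap. The mouse's own metallothionein genes were also higher in every transgenic liver. Mt1 read 9.72 to 11.50 in wild-type and 13.71 to 14.38 in transgenic livers (limma adjusted p = 0.69). Mt2 read 4.87 to 5.85 and 9.68 to 11.06 (limma adjusted p = 0.35). Whether zinc or another inducer differed between the groups was not tested. All 11 tested hepatocyte markers were above background on all 6 arrays. Of 7 adipocyte markers 0 were above background on every array, Lipe was above it on none, and their summed signal was 393 to 561 in wild-type and 254 to 597 in transgenic livers. Of 9 muscle markers 1 was above background on every array, Myh6, Tnnt3 and Ryr1 on none, and the summed signal was 548 to 981 and 628 to 2015. Over 51 markers of these and 5 other non-hepatocyte classes, 0 passed limma's test after adjustment and 3 had an unadjusted p under 0.05, against 7.09% of all features. The part of other cells or of sex-biased expression in the results that follow was not tested. In pieces of whole liver, fewer cells of a type and less RNA per cell cannot be told apart.

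The comparison asked whether livers carrying the Src transgene differed in these genes. After adjustment over all features 0 of the 29 genes passed limma's test, as did 0% of all features. The largest difference belonged to Cyp4a14, 3.05-fold higher in transgenic livers. It was the only member with an unadjusted limma p under 0.05, or 1 of 29 genes (3.45%), against 7.09% of all features in either direction and 4.37% higher. On the lower side the count was 0 of 29, against 2.72% of all features. The 3 transgenic values lay above the 3 wild-type values for Cyp4a14, Vnn1, Acsl1 and Acaa2, or 4 of 29 genes (13.8%), against 10.1% of all features. They lay below for Ppara and Creb3l3, or 2 of 29 genes (6.9%), against 5.9% of all features. These shares were near those of the array as a whole.

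The median log2 difference of the 29 genes, transgenic minus wild-type, was 0.13 after quantile normalization and 0.14 after cyclic loess, and it turned to -0.16 when arrays were scaled by their medians or taken as the authors scaled them. Over all features the corresponding medians were 0.016, -0.0084, -0.078 and -0.077. Most members are bright, and the 1916 features within the middle 50% of the members' mean signals had medians of 0.0072 with quantile normalization and -0.23 with median scaling. The sign of some small differences among the members turned with the scaling. With quantile normalization 19 of 29 were positive, against 51.7% of all features. With median scaling 11 of 29 were positive, against 43.0% of all features. The differences were small for most genes, within 0.5 of 0 for 26 of 29 (89.7%), against 72.7% of all features and 83.4% of those above background on every array. The median standard deviation within groups was 0.24 for the members, 0.36 for all features and 0.29 for those above background on every array.

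**Figure D1:**
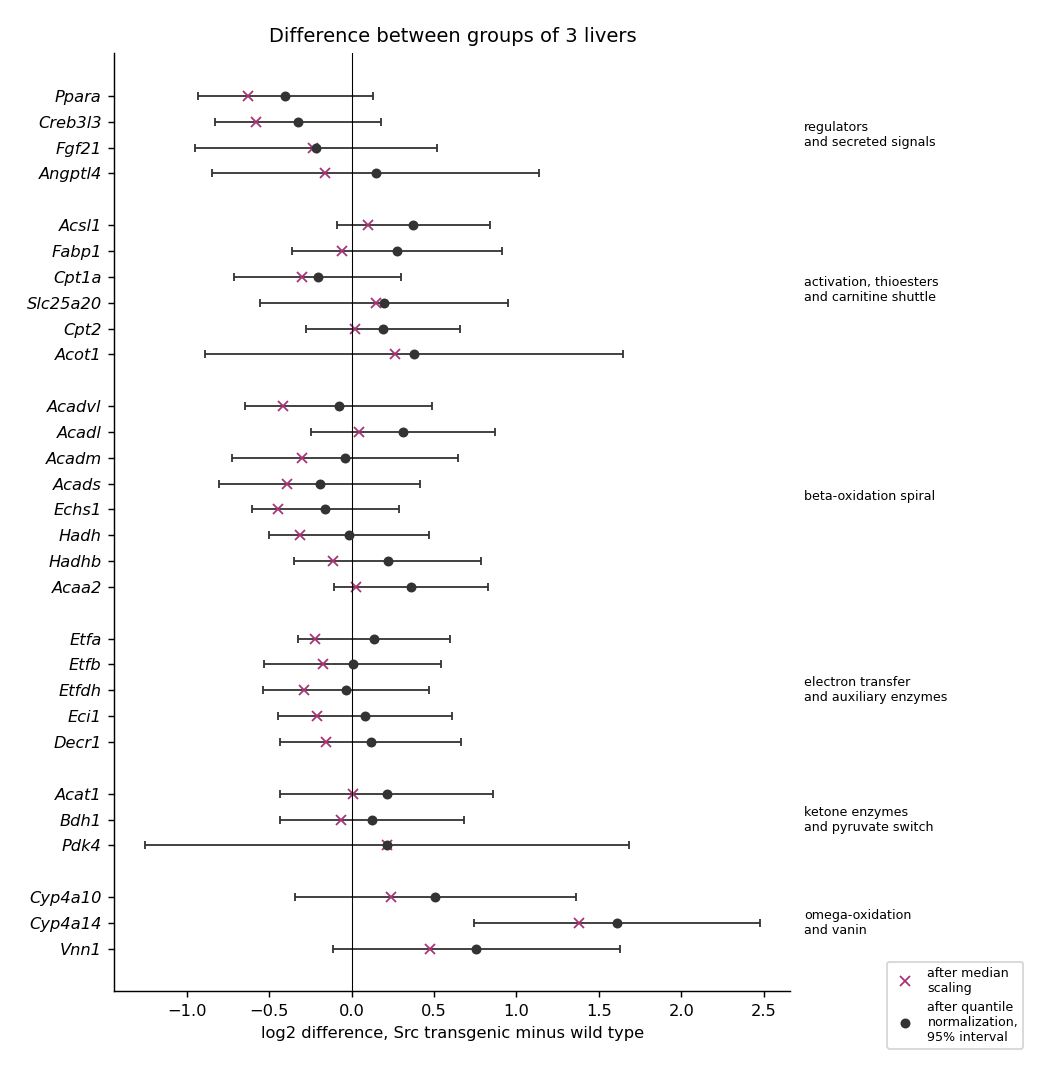
Log2 difference between 3 transgenic and 3 wild-type livers for each of the 29 genes, grouped by role (points, quantile normalization, with limma's 95% interval; crosses, median scaling). Only the Cyp4a14 interval, 0.74 to 2.47, lies clear of 0, and median scaling moves most genes to the left.

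The omega-oxidation genes and Vnn1 gave the largest differences. Cyp4a14 encodes a fatty acid omega-hydroxylase of the endoplasmic reticulum and is among the most responsive PPAR alpha targets of mouse liver. It read 10.23, 10.17 and 10.43 on wild-type replicates 1, 2 and 4 and 11.95, 11.19 and 12.52 on transgenic replicates 1, 3 and 4. The groups did not overlap, with a gap of 0.77 between the highest wild-type and the lowest transgenic value, and transgenic replicate 4 was the highest. The group means were 10.28 ± 0.13 and 11.89 ± 0.66 (SD, n = 3 each), which differed by 1.61 ± 0.36 (SE) in log2. Limma's adjusted p was 0.69. Permuting the 6 values in every way (exact, two-sided) returned p = 0.1, the lower limit for groups of 3. Without transgenic replicate 4 the difference was 1.29, and over all 16 alternatives it was between 1.29 and 1.96.

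Cyp4a10, a close relative with the same reaction, read 10.95, 10.83 and 11.33 in wild-type and 11.13, 11.26 and 12.25 in transgenic livers. The groups overlapped, since only transgenic replicate 4 exceeded wild-type replicate 4. The log2 difference was 0.51 ± 0.35 (SE; limma adjusted p = 0.725), and it was 0.16 without transgenic replicate 4. After local correction of brightness it was 0.63, and the groups no longer overlapped. Cyp4a transcripts are alike in sequence, and whether the probes separate them was not tested.

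Vnn1 encodes vanin-1, a pantetheinase that releases cysteamine in the turnover of coenzyme A. It read 11.31, 11.18 and 11.37 in wild-type and 11.42, 11.95 and 12.76 in transgenic livers. The groups were separated by a gap of 0.042, and replicate 4 was again the highest. The log2 difference was 0.76 ± 0.36 (SE, limma adjusted p = 0.69). It was 0.40 without transgenic replicate 4 and 0.29 after local correction of brightness, where the groups stayed apart. On transgenic replicate 4 the spot lay in a patch of unusual brightness. Without transgenic replicate 1 the difference was 1.07, with an unadjusted limma p under 0.05. Vnn1 lost its separation with median scaling, cyclic loess and the authors' scaling.

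**Figure D2:**
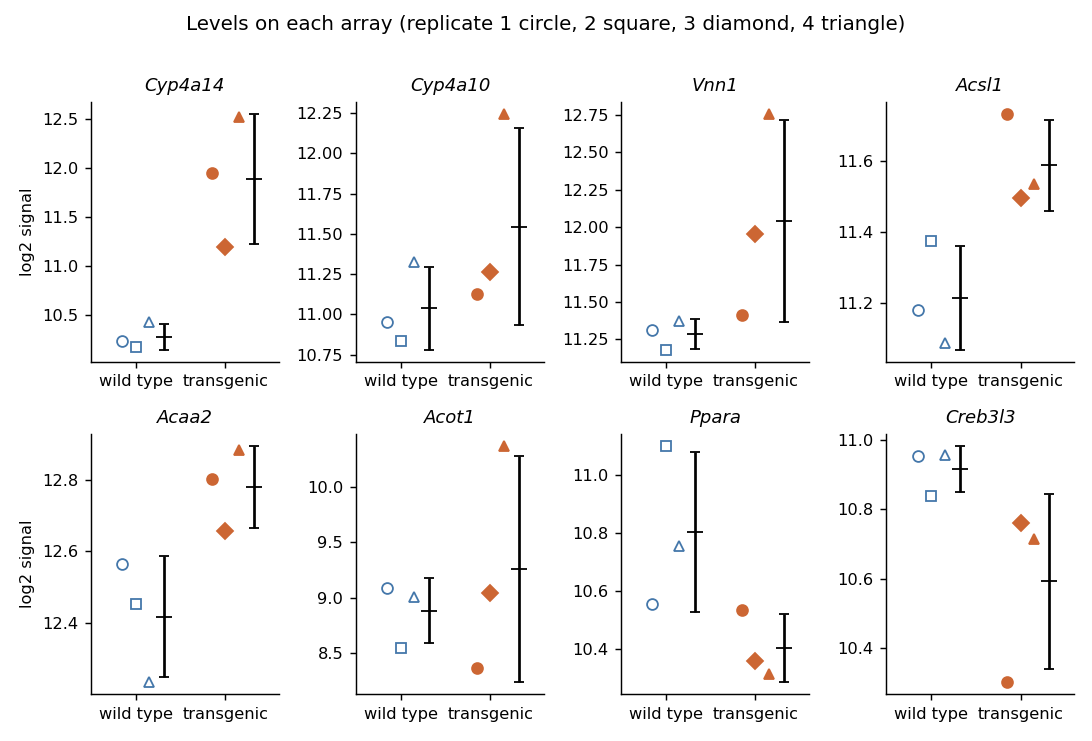
Log2 signal on each array for 8 of the genes (open blue, wild type; filled orange, Src transgenic; bars, mean and SD of 3; each panel has its own axis). Cyp4a14 is separated by the widest gap, and replicate 4 of the transgenic group, the filled triangle, is the highest point for Cyp4a14, Cyp4a10, Vnn1, Acaa2 and Acot1.

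The means of Ppara and Creb3l3 were lower in transgenic livers. Ppara, the receptor itself, read 10.55, 11.10 and 10.76 in wild-type and 10.54, 10.36 and 10.31 in transgenic livers. The transgenic values were all lower, but the gap was 0.018, between wild-type replicate 1 and transgenic replicate 1. The log2 difference was -0.40 ± 0.22 (SE; limma adjusted p = 0.70), with a 95% interval of -0.93 to 0.13. Its spot lay in patches of unusual brightness on 3 arrays, wild-type replicate 4 and transgenic replicates 3 and 4. The difference was -0.93 after local correction, where the groups overlapped, and -0.63 with median scaling.

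Creb3l3 encodes CREBH, a membrane-bound transcription factor of the liver that acts with PPAR alpha in fasting, and it is the second of the genes whose promoter is printed. It read 10.95, 10.84 and 10.96 in wild-type and 10.30, 10.76 and 10.71 in transgenic livers. All transgenic values were lower, transgenic replicate 1 by the most. The log2 difference was -0.32 ± 0.21 (SE; limma adjusted p = 0.71), and -0.18 without that replicate. It was -0.58 with median scaling, and the groups overlapped after local correction.

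The secreted products of the program had a wide spread among transgenic livers. Fgf21, a fasting hormone made by the liver, read 6.17, 5.78 and 6.18 in wild-type and 5.28, 6.23 and 5.97 in transgenic livers, in the dim part of the scale. Its log2 difference was -0.22 ± 0.30 (SE). Angptl4, an inhibitor of lipoprotein lipase, read 11.40 to 11.55 in wild-type livers and 10.73, 12.28 and 11.84 on transgenic replicates 1, 3 and 4. The transgenic values thus lay on either side of the wild-type range, and the log2 difference was 0.15 ± 0.41 (SE), negative with median scaling. Without transgenic replicate 1 the difference was 0.056 for Fgf21 and 0.59 for Angptl4, and neither passed limma's test in any alternative.

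Among the genes of activation, carnitine transfer and thioester hydrolysis, 5 of 6 had a positive log2 difference, with a range from -0.21 for Cpt1a to 0.38 for Acot1. Acsl1, the main acyl-CoA synthetase of liver, read 11.18, 11.38 and 11.09 in wild-type and 11.74, 11.50 and 11.53 in transgenic livers. The groups were separated by a gap of 0.12, with a log2 difference of 0.38 ± 0.19 (SE; limma adjusted p = 0.69). With median scaling the difference was 0.10 and the groups overlapped.

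Cpt1a, whose enzyme makes acylcarnitine at the outer membrane and sets the rate of entry, read 9.15, 8.84 and 9.09 in wild-type and 8.60, 8.86 and 9.01 in transgenic livers. The groups overlapped, with a log2 difference of -0.21 ± 0.21 (SE; limma adjusted p = 0.79) and a 95% interval of -0.71 to 0.30. The later steps of the shuttle gave 0.20 ± 0.31 for Slc25a20, the carnitine-acylcarnitine carrier, and 0.19 ± 0.19 for Cpt2 at the inner membrane (SE). The Slc25a20 value was 0.010 without transgenic replicate 1, 0.022 without wild-type replicate 4 and 0.43 without wild-type replicate 1. The Cpt2 value was 0.12 without transgenic replicate 1. Fabp1, the liver fatty acid binding protein, had 0.28 ± 0.26 with all arrays, 0.051 without transgenic replicate 4 and -0.058 with median scaling.

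Acot1 encodes a cytosolic acyl-CoA thioesterase that PPAR alpha induces strongly, and Acot2 is its mitochondrial paralog. Acot1 read 9.09, 8.55 and 9.01 in wild-type and 8.36, 9.04 and 10.37 in transgenic livers. Transgenic replicate 4 was far above the rest and replicate 1 was the lowest of all, so the groups overlapped. The log2 difference was 0.38 ± 0.52 (SE; limma adjusted p = 0.84), and it turned to -0.18 without transgenic replicate 4. Whether the Acot1 probe also reads Acot2 was not tested.

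The enzymes of the beta-oxidation spiral lay for the most part close to equality after quantile normalization, and each difference was lower with median scaling. Of the 8 tested, 3 had a positive and 5 a negative log2 difference, with a median of -0.027. With median scaling the differences were -0.41 for Acadvl, -0.30 for Acadm, -0.39 for Acads, -0.45 for Echs1 and -0.31 for Hadh. They were -0.11 for Hadhb, 0.043 for Acadl and 0.024 for Acaa2, and the Echs1 groups no longer overlapped. Over the 1916 features of like mean signal described above, the median was -0.23 with that scaling. The acyl-CoA dehydrogenases, which open each turn for chains of falling length, gave -0.078 ± 0.23 for Acadvl, 0.31 ± 0.23 for Acadl, -0.038 ± 0.28 for Acadm and -0.19 ± 0.25 for Acads (SE). Without transgenic replicate 4 these became 0.13 for Acadl, 0.24 for Acadm and -0.021 for Acads. The hydratase gene Echs1 gave -0.16 ± 0.18 and the dehydrogenase gene Hadh -0.017 ± 0.20, with a 95% interval for Hadh of -0.50 to 0.47. Hadh had its spot in a bright or dim patch on transgenic replicate 3 and gave 0.36 after local correction, where its groups no longer overlapped. Hadhb, the thiolase subunit of the trifunctional protein, gave 0.22 ± 0.23, which was 0.037 without transgenic replicate 4 and negative with median scaling. Each of these groups overlapped after quantile normalization, and those of Acadl did not overlap after cyclic loess.

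Acaa2, the mitochondrial thiolase that ends each turn, was the only gene of the spiral whose groups did not overlap after quantile normalization. It read 12.56, 12.46 and 12.24 in wild-type and 12.80, 12.66 and 12.88 in transgenic livers. The gap between groups was 0.092 and the log2 difference was 0.36 ± 0.19 (SE; limma adjusted p = 0.70). With median scaling it was 0.024 and the groups overlapped. An offset of 50 added to the signal, or a trended and robust estimate of the spread, gave an unadjusted p under 0.05 to Acsl1 and Acaa2 beside Cyp4a14, or 3 of 29 genes in place of 1. The shares of all features that were higher at that threshold were 4.61% and 4.19%.

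Electron transfer and accessory genes lay near equality as well. Etfa and Etfb, the subunits of electron transfer flavoprotein, gave log2 differences of 0.13 ± 0.19 and 0.0069 ± 0.22, and Etfdh, their oxidoreductase, gave -0.034 ± 0.21 (SE). The isomerase Eci1 and the dienoyl-CoA reductase Decr1, which handle unsaturated chains, gave 0.082 ± 0.22 and 0.12 ± 0.23. The 95% intervals of these 5 genes ran from -0.53 at the lowest to 0.66 at the highest. Each interval held 0, and equality was not shown with 3 arrays against 3. Etfa, Etfb, Eci1 and Decr1 turned negative with median scaling.

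Acat1, the thiolase of ketone body metabolism, gave 0.21 ± 0.27 with all arrays and -0.0045 without transgenic replicate 4. Bdh1, which converts acetoacetate to beta-hydroxybutyrate, gave 0.12 ± 0.23 (SE) and was negative with median scaling. Pdk4 encodes the kinase that shuts off pyruvate oxidation when fat is burned. Its probe was above background only on wild-type replicate 1 and transgenic replicate 1, where it read 6.31 and 5.38, and its log2 difference of 0.22 ± 0.60 (SE) rests on dim spots. Without wild-type replicate 1 that difference was 0.91, with an unadjusted limma p under 0.05.

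**Figure D3:**
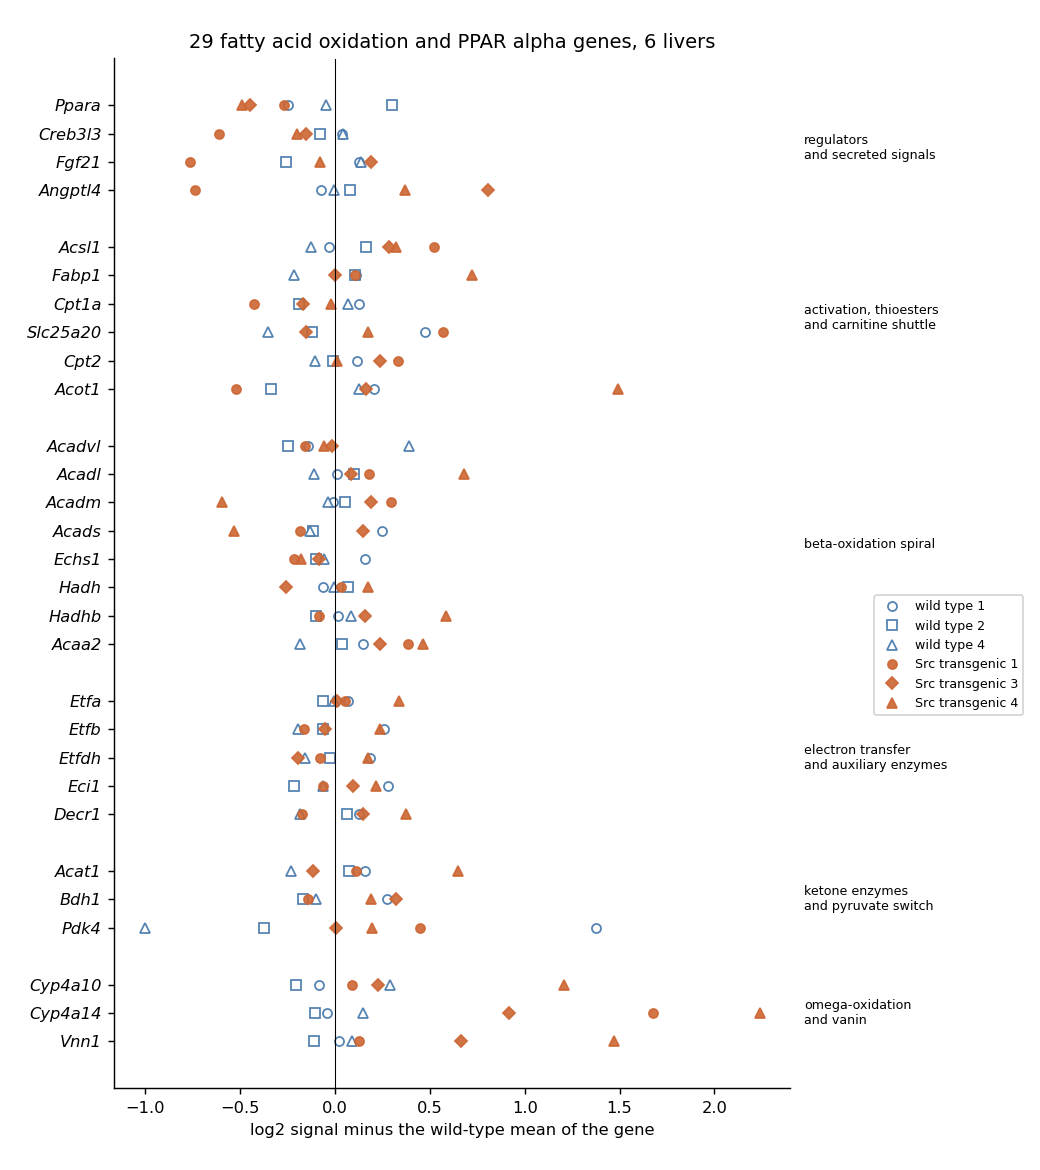
Log2 signal of each gene on each array minus the wild-type mean of that gene (open blue, wild type; filled orange, Src transgenic; rows grouped by role). Most points lie within 0.5 of 0, and the filled triangles of transgenic replicate 4 reach farthest to the right for Cyp4a14, Acot1, Vnn1 and Cyp4a10.

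The variation between livers had its own pattern. Of the 29 genes, 12 were highest on transgenic replicate 4, where 18.8% of all features were highest, and 7 on wild-type replicate 1, against 25.9% of all features. The median deviation of the members from their wild-type means was 0.22 on transgenic replicate 4, 0.094 on replicate 3 and -0.066 on replicate 1, with wild-type arrays between -0.077 and 0.12. Only transgenic replicate 4 thus lay above the wild-type range, with quantile normalization. Each wild-type array is part of the mean it was set against, which draws wild-type deviations toward 0. Without transgenic replicate 4 the median log2 difference was 0.032 for the members and 0.026 over all features. Cyp4a14 was still the only member with an unadjusted limma p under 0.05. On the same array 3 members had their lowest value of the 6: Ppara at 10.31, Acadm at 10.31 and Acads at 9.67.

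**Figure D4:**
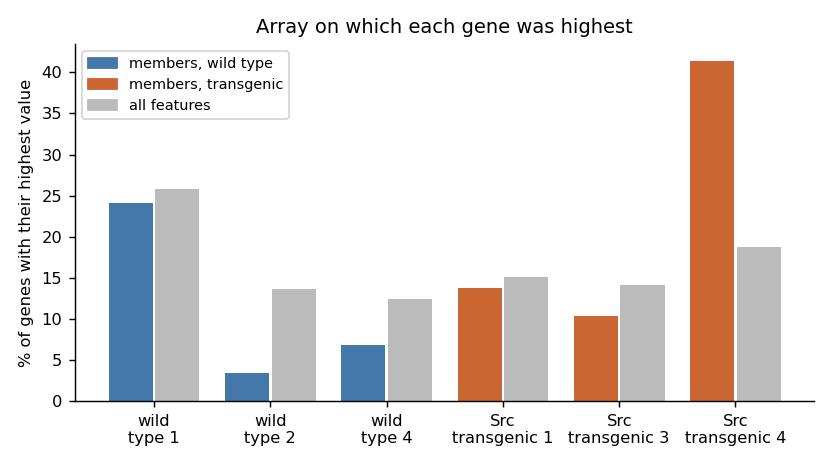
Percentage of the 29 genes, and of all 34175 features (grey), that had their highest normalized signal on each array. Transgenic replicate 4 holds 12 of the 29 genes, the tallest coloured bar.

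A wider list of 90 genes of fatty acid oxidation, ketone metabolism and PPAR alpha action, 76 of them with a probe, was read for comparison. In this list 0 genes passed after adjustment over all features. At an unadjusted p under 0.05 there was 1 higher (Acot4) and 4 lower (Krt23, Pdk2, Nudt7 and Ppargc1b), which is 1.32% and 5.26% of the list, against 4.37% and 2.72% of all features. The median log2 difference was -0.014. All transgenic values lay above the wild-type values for 5 genes (6.58%, against 10.1% of all features) and below for 8 (10.5%, against 5.9%). With median scaling these counts were 2 and 13, against 8.03% and 7.57% of all features.

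The peroxisomal acyl-CoA thioesterases had higher means in transgenic livers. Acot4 read 7.67, 7.40 and 7.50 in wild-type and 8.30, 8.05 and 8.91 in transgenic livers. The means differed by 0.89 ± 0.27 (SE; limma adjusted p = 0.69), which was 0.38 after local correction. Acot3 read 8.47, 8.43 and 9.11 in wild-type and 9.81, 9.19 and 11.97 in transgenic livers. Its difference of 1.65 ± 0.72 was 0.83 without transgenic replicate 4. The groups overlapped for neither gene.

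Cyp4a12b, whose enzyme is a male-predominant member of the Cyp4a family in mouse liver, had a lower mean in transgenic livers. It read 11.96, 12.38 and 11.74 in wild-type and 10.22, 11.20 and 5.50 in transgenic livers. The means differed by -3.06 ± 1.43 (SE; limma adjusted p = 0.69), or -1.32 without transgenic replicate 4. Its second probe differed by -2.72 before scaling between arrays and the one used by -2.78. Nudt7, a peroxisomal hydrolase of coenzyme A, gave -0.99 ± 0.37 and -0.62 without that replicate. The same Nudt7 probe is also among the male-biased genes summed above, so the 2 readings are not separate.

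Among genes that steer fuel use, Pdk2, a kinase that inhibits pyruvate dehydrogenase, gave -0.57 ± 0.21, and Ppargc1b, a coactivator of mitochondrial genes, gave -0.63 ± 0.26 (SE). The keratin gene Krt23 gave -0.75 ± 0.20 and the dehydrogenase-like gene Acad10 -0.51 ± 0.24. All transgenic values were lower for each of these genes, and the limma adjusted p was 0.69 for each. Of the 13 tested partners and coregulators of PPAR alpha, Ppargc1b alone had an unadjusted p under 0.05, a share near the 7.09% of all features. Rxra, the DNA-binding partner, gave 0.17 ± 0.28, turning to -0.090 without transgenic replicate 4 and to -0.46 after local correction. Ppargc1a, above background on 1 array, gave -0.21 ± 0.24, turning to 0.13 after local correction.

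**Figure D5:**
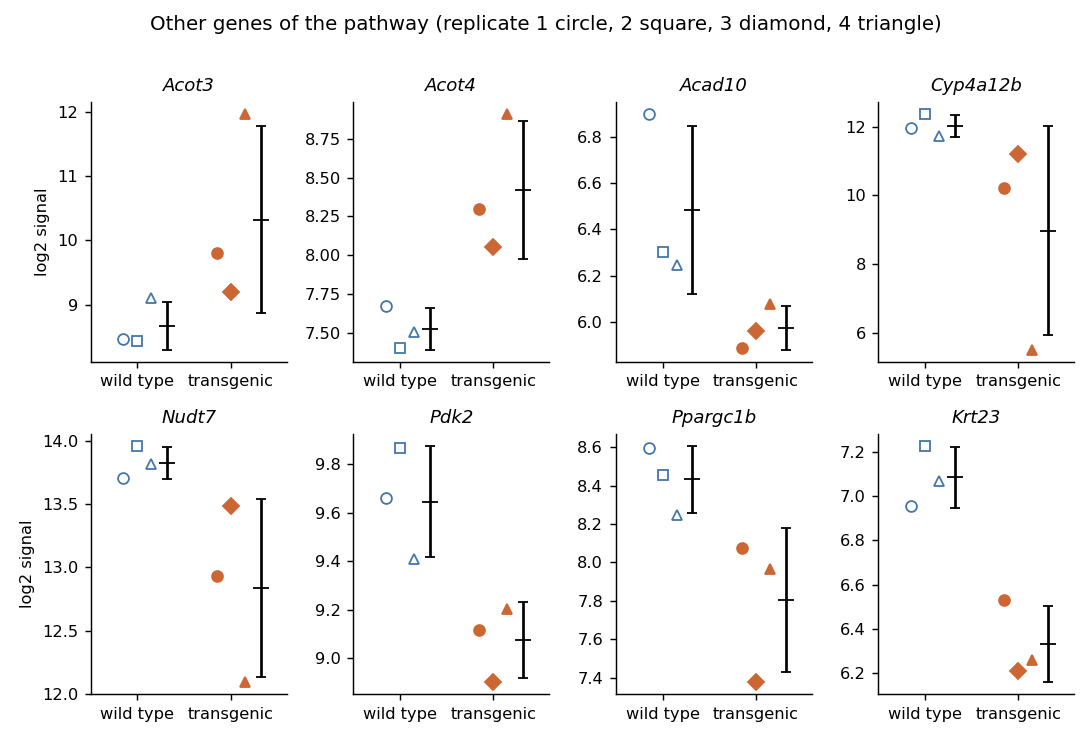
Log2 signal on each array for 8 genes of the wider list (open blue, wild type; filled orange, Src transgenic; bars, mean and SD of 3; each panel has its own axis). Transgenic replicate 4, the filled triangle, is the highest point for Acot3 and Acot4 and the lowest for Cyp4a12b and Nudt7.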

How the data were processed

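Poly(A) RNA from 6 livers was amplified to biotin-labelled cRNA, per the labels' protocols. The authors deposited a background-corrected intensity per spot (per the file headers), and a copy of it divided by a constant for each array, which also fills their value table (array medians 0.99 to 1.00). The sources used here name no scanner.

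Of 35587 spots, 620 bacterial controls were left out. Signals were raised to at least the 1st percentile of positive values (4.72 to 5.75), taken to log2 and quantile normalized. RefSeq accessions (GRCm38.p6) named 14763 probes, and 20204 stayed unnamed. The brightest probe stood for a gene. Background was the median of 570 control spots plus 3 of their scaled median absolute deviations (33.0 to 50.6), a rule set after the data were seen. The groups were fitted by lmFit and eBayes of limma 3.58.1 (R 4.3.3), with two-sided tests and Benjamini-Hochberg adjustment across 34175 features. The fit was also run on simulated data, drawn independently for each feature. These held no patches or array-wide effects, so the bearing of such effects on the fit was not tested. A spot lay in a patch where its neighbours within 4 rows and columns had a median deviation over 0.5 in log2, and local correction subtracted that median.

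The members and lists were chosen with earlier results of these data known. Values on every array are given for Ppara, Cpt1a, Acot1, Cyp4a10, Cyp4a14, Fgf21 and each further member with an unadjusted p under 0.05 or groups that do not overlap; of the wider list, the 8 genes with the smallest p plus Rxra and Ppargc1a are named, and some further genes are not reported here. The number of arrays limits the precision. Alternatives were other scalings, floors, filters, probe rules, spread models, array weights, local correction, a replicate block and each array left out.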

Additional observations from a re-analysis of the deposited data

How the results depend on the processing

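Under all 16 alternatives 0 of the 29 genes and 0 genes of the wider list passed after adjustment, the lowest adjusted p of a member being 0.57, and 12 genes, Cyp4a14 among them, kept their direction. With median scaling or the authors' scaling the number with an unadjusted p under 0.05 and lower went from 0 to 1 (Ppara). That share of all features went from 2.72% to 3.84% and 3.83%. The number with all transgenic values higher went from 4 to 1 (10.1% of all features to 8.03% with median scaling and 8.04% with the authors'). The number with all lower went from 2 to 3, adding Echs1 (5.9% of all features to 7.57% and 7.54%). The median log2 difference went from 0.13 to -0.16. The number with an unadjusted p under 0.05 and higher went from 1 to 3 with an offset of 50 and with a trended spread (4.37% of all features to 4.61% and 4.19%). Leaving out single arrays gave 1 to 2 for that number, against 2.8% to 4.6% of all features (adding Pdk4 without wild-type replicate 1 and Vnn1 without transgenic replicate 1). It gave 5 to 7 for genes all higher, against 13.75% to 16.77% of all features. For genes all lower it gave 2 to 4, against 7.93% to 14.68% of all features. Leaving out single arrays also gave a range over 0 for these log2 differences: Etfdh -0.14 to 0.059, Hadh -0.11 to 0.10, Etfb -0.11 to 0.14, Eci1 -0.027 to 0.22, Acadvl -0.20 to 0.12, Pdk4 -0.29 to 0.91, Fgf21 -0.42 to 0.056, Angptl4 -0.19 to 0.59, Acot1 -0.18 to 0.83, Acadm -0.20 to 0.24, Decr1 -0.014 to 0.26 and Acat1 -0.0045 to 0.38. Fewer arrays leave fewer values to overlap.

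Other settings turned the sign of small differences, and the cause was not tested. With median scaling, and likewise with the authors' scaling, these were -0.16 for Angptl4, -0.058 for Fabp1, -0.11 for Hadhb, -0.22 for Etfa, -0.17 for Etfb, -0.21 for Eci1, -0.16 for Decr1 and -0.063 for Bdh1 (-0.062 with the authors' scaling). Cyclic loess gave -0.026 for Etfb, and array weights gave -0.020 for Etfb and 0.054 for Acadm. Local correction gave -0.21 for Angptl4, -0.019 for Cpt2 and Bdh1, 0.36 for Hadh, -0.23 for Etfb and 0.058 for Etfdh. With it all transgenic values were higher for 6 genes, adding Hadh and Cyp4a10, against 9.0% of all features. They were lower for 2 genes, Acads and Echs1, against 8.7% of all features. The groups share only the replicate numbers 1 and 4, and arrays of one number did not deviate together (r = 0.060 and 0.058 across 34175 features). A replicate block left Cyp4a14 the only gene with an unadjusted p under 0.05 and gave -0.15 for Angptl4, 0.14 for Hadh, 0.033 for Etfdh, -0.033 for Eci1 and -0.062 for Bdh1.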
